A study of Mus musculus with 6 samples.

Results

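*Rbm3*, *Cirbp* and *Rbmx* encode RNA-binding proteins of 1 family, and they are 3 of the 17193 genes listed for these astrocyte libraries. *Rbm3* was chosen because its FPKM values were higher after quinpirole in these libraries. Its change is therefore described here without a test. *Cirbp* and *Rbmx* were chosen as its relatives, and their changes were tested across all expressed genes. The question was whether the relatives of *Rbm3* moved with it.

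Wild-type C57BL/6 mice aged 3 months were the source of brain astrocytes, which were captured on beads against the surface antigen ACSA-2, and their poly-A RNA was sequenced. The 3 control libraries came from mice labelled Mock, and the 3 treated libraries from mice given quinpirole, an agonist of the dopamine receptor DRD2. The dose and duration of quinpirole for the sequenced mice and the number of mice in a library were not given in the sources used here. The p-values therefore measure the spread between libraries only.

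RBM3 and CIRBP are small proteins with an RNA recognition motif at the amino terminus and a glycine-rich tail, and both are best known for accumulating when cells are mildly cooled, at temperatures at which the synthesis of most proteins slows. They bind many mRNAs and have been linked to translation, mRNA stability, choice of polyadenylation site and, for RBM3 in brain, the regrowth of synapses. RBMX, also called hnRNP G, carries the same kind of motif but acts mainly in splicing and chromosome cohesion and is not known as a cold-induced protein.

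*Rbm3* (ENSMUSG00000031167) lies on the minus strand of chromosome X at 8138975 to 8145880 in GRCm38. *Cirbp* (ENSMUSG00000045193) lies on the plus strand of chromosome 10 at 80165985 to 80172786, and *Rbmx* (ENSMUSG00000031134) lies on the minus strand of chromosome X at 57383530 to 57393036. The kinship of the genes is shown by 90 coding bases that encode the middle of the RNA recognition motif. They were read from GRCm38 with the GENCODE M21 annotation, in coding orientation. The *Rbm3* stretch covers coding bases 73 to 162 (chrX:8144621-8144985, minus strand), the *Cirbp* stretch coding bases 73 to 162 (chr10:80169886-80170074, plus strand), the *Rbmx* stretch coding bases 79 to 168 (chrX:57391320-57391597, minus strand), and the stretch of *Rbmxl1*, an intronless relative of *Rbmx*, coding bases 79 to 168 (chr8:78506545-78506634, minus strand). The intervals of the first 3 include 1 intron each, whose bases are left out. Capitals mark bases that differ from *Rbm3*:
Rbm3: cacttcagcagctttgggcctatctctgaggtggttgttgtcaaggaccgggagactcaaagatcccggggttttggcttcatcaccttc
Cirbp: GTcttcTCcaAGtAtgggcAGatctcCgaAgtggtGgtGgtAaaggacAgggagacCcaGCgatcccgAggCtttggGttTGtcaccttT
Rbmx: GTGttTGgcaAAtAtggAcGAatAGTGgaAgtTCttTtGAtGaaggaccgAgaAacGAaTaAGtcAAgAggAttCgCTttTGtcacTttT
Rbmxl1: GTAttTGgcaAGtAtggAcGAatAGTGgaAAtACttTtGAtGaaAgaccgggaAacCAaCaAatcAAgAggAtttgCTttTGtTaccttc

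In this stretch, *Cirbp* was identical to *Rbm3* at 66 of 90 bases (73.3%), *Rbmx* at 50 (55.6%) and *Rbmxl1* at 52 (57.8%). The stretch was picked as the in-frame part of *Rbm3* most like *Cirbp*, and the other genes were then matched to it. That choice favoured *Cirbp*, so these shares do not rank the relatives of *Rbm3*. The longest run of bases shared between the longest transcripts of any pair among *Rbm3*, *Cirbp* and *Rbmx* was 12 bases, so reads of 1 of these genes could be told from reads of the others. Processed copies elsewhere in the genome were closer. Of the 50-base words in the longest *Rbm3* transcript, 14.8% also occurred in transcripts of other genes, mostly of the pseudogene *Rbm3-ps* (11.5%). The shares were 0.0% for *Cirbp* and 1.0% for *Rbmx*, but 79.0% for *Rbmxl1*, whose values are therefore uncertain. How the authors assigned such reads was not given in the sources used here. Of the annotated transcripts, 6 of 11 for *Rbm3*, 2 of 7 for *Cirbp* and 5 of 6 for *Rbmx* were protein coding, and the FPKM values do not separate them. In particular, 4 of the 7 *Cirbp* transcripts retained an intron.

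The deposited values are FPKM, that is, fragments per length of transcript and per depth of library. They summed to between 401769 and 413730 per mock library and between 425244 and 437164 per quinpirole library. No read counts were used. The steps between the lowest FPKM values gave an estimated depth of 22350000 to 27550000 fragments per library, with 60.2% to 68.9% of low values within 0.1 of a whole number of fragments. The steps matched depths of 44400000 to 55100000 fragments more closely in each library, with 66.0% to 72.0% of low values within 0.1. The first estimate is therefore a lower one, and counting errors at the greater depth would be smaller than those given here. At the lower depth and the longest transcript, counting error was 1.03% to 1.25% for *Rbm3*, 3.44% to 3.61% for *Cirbp* and 2.63% to 3.01% for *Rbmx*. Of 12255 genes with a mean of at least 1 FPKM, 1339 (10.9%) had an adjusted p under 0.05 between the groups, with 5.74% of tested genes higher and 5.18% lower (limma on log2(FPKM + 1), two-sided, Benjamini-Hochberg). Complete separation of the 3 quinpirole from the 3 mock libraries, in either direction, was seen for 36.9% of tested genes. After each library was corrected for a trend with transcript length, 4.16% of 12223 genes were past the threshold. With the replicate number as a block, 2 of all tested genes were past it, and with single libraries left out 3 to 1182 were. Calls of single genes given below therefore depend on the libraries and the fit.

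Among the 3 genes, *Rbm3* was the most abundant transcript per length in each of the 6 libraries, *Cirbp* the next and *Rbmx* the least. The *Rbm3* level was 97.7, 90.3 and 90.1 FPKM in mock libraries 1 to 3 and 122.5, 131.7 and 131.0 FPKM in quinpirole libraries 1 to 3. All 3 quinpirole libraries lay above all 3 mock libraries, and the gap between the groups was wider than the spread within either. Separation in either direction was seen for 36.9% of all tested genes. The mean level was 92.7 ± 4.35 FPKM in mock and 128.4 ± 5.15 FPKM in quinpirole libraries (SD, n = 3). This corresponds to 38.5% more per length, or a log2 fold change of 0.47 (standard error 0.048) on the scale of log2(FPKM + 1). *Rbm3* stood at rank 713 of all listed genes by its mock level and at rank 62 of 12255 by its log2 fold change, which is the quantity it was chosen by. In bulk libraries such as these, more cells of a type and more RNA per cell cannot be told apart.

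**Figure D1:**
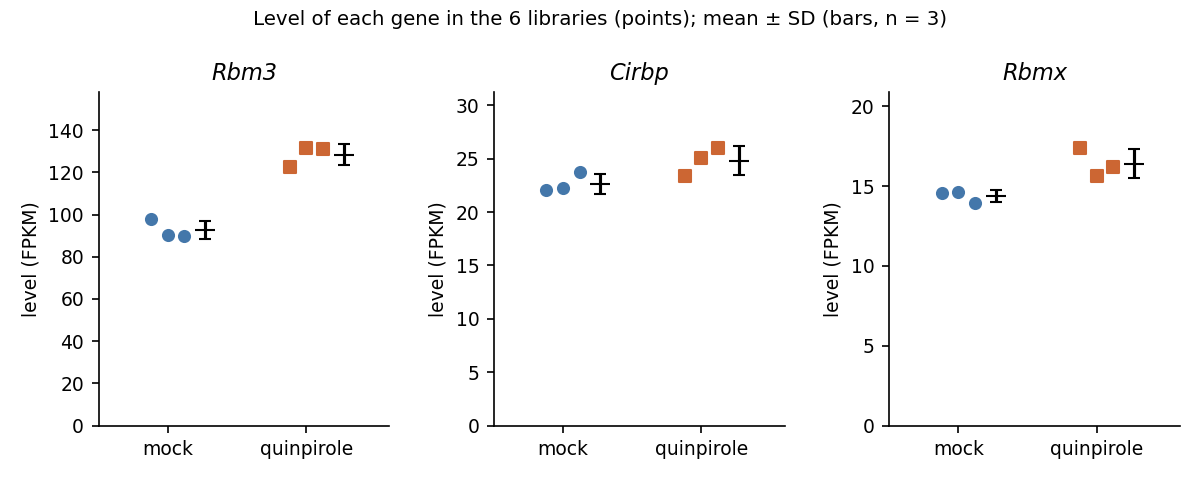
Level in FPKM (y axis, from 0) of *Rbm3*, *Cirbp* and *Rbmx* in 3 mock (circles) and 3 quinpirole (squares) libraries, with the mean ± SD beside each group. The groups are apart for *Rbm3* (90.1 to 97.7 against 122.5 to 131.7 FPKM) and, by less, for *Rbmx*, and they overlap for *Cirbp*. Of all tested genes, 36.9% were apart in either direction.

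*Cirbp*, the other cold-induced member, did not pass the threshold. Its level was 22.02, 22.22 and 23.73 FPKM in mock libraries and 23.37, 25.06 and 26.03 FPKM in quinpirole libraries. The groups overlapped, because mock library 3 lay above quinpirole library 1. Mean levels were 22.7 ± 0.933 and 24.8 ± 1.34 FPKM (SD, n = 3), a ratio of 1.10. The log2 fold change was 0.13 (standard error 0.053, 95% confidence interval 0.00074 to 0.25), with a limma adjusted p of 0.157 over all tested genes. With each library corrected for transcript length, the log2 fold change of *Cirbp* was 0.05 ± 0.11 (95% confidence half-width) with a limma adjusted p of 0.528. The uncorrected interval began just above 0 and the corrected one included 0, so a small rise of *Cirbp* is neither shown nor excluded by these values.

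*Rbmx* was separated between the groups, as were 36.9% of all tested genes in either direction, and it also missed the threshold. Its level was 14.6, 14.6 and 14.0 FPKM in mock libraries and 17.4, 15.7 and 16.2 FPKM in quinpirole libraries, so the 3 treated libraries were all higher. Mean levels were 14.4 ± 0.350 and 16.4 ± 0.903 FPKM (SD, n = 3), a ratio of 1.14. The log2 fold change of *Rbmx* was 0.18 (standard error 0.052, 95% confidence interval 0.056 to 0.30) with a limma adjusted p of 0.0664. After the length correction it was 0.16 ± 0.12 (95% confidence half-width), with a limma adjusted p of 0.112. Quinpirole library 1 held the highest *Rbmx* level of the 6, whereas for both *Rbm3* and *Cirbp* it was the lowest of the quinpirole libraries.

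The ratios of levels within a library show how the balance among the genes moved. The ratio of *Rbm3* to *Cirbp* FPKM was 4.44, 4.07 and 3.80 in mock libraries and 5.24, 5.26 and 5.04 in quinpirole libraries. *Rbm3* thus gained on *Cirbp* in each treated library, which restates the choice of *Rbm3* and was not tested. The ratio of *Rbm3* to *Rbmx* was 6.19 to 6.72 in mock libraries and 7.04 to 8.42 in quinpirole libraries. The ratio of *Cirbp* to *Rbmx*, which did not involve the chosen gene, was 1.51, 1.52 and 1.70 in mock libraries and 1.34, 1.602 and 1.61 in quinpirole libraries. On the log2 scale its mean was 0.66 ± 0.094 in mock and 0.60 ± 0.15 in quinpirole libraries (SD, n = 3), with an exact two-sided permutation p of 0.7, where 0.1 is the smallest that 3 libraries against 3 allow.

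**Figure D2:**
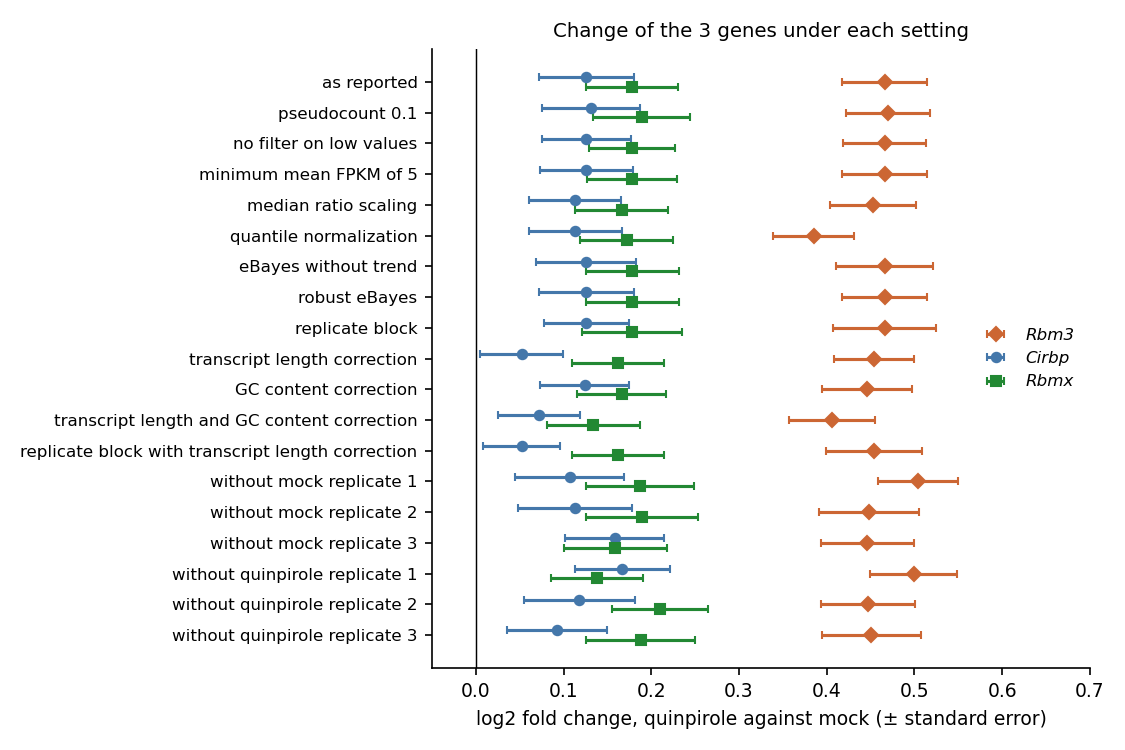
Log2 fold change of quinpirole against mock (x axis, ± standard error) for *Rbm3* (diamonds), *Cirbp* (circles) and *Rbmx* (squares) under each processing setting and without each library. *Rbm3* stays between 0.385 and 0.504 and to the right of both relatives, while the *Cirbp* value is lowest, at 0.052, with the length correction.

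Genes related to *Rbmx* by sequence or only by name were also examined. *Rbmxl1* was measured at 29.6, 31.7 and 30.1 FPKM in mock and 34.2, 31.2 and 35.1 FPKM in quinpirole libraries, with overlapping groups and a log2 fold change of 0.13 (limma adjusted p = 0.144). *Rbmx2*, which encodes a spliceosomal protein, had a level of 2.21 to 2.92 FPKM in mock and 2.57 to 3.11 FPKM in quinpirole libraries (log2 fold change 0.11, limma adjusted p = 0.466). Neither gene was past the threshold. *Rbmxl2*, a testis gene, was listed at or near 0 in all libraries, and *Rbm31y* was not analysed here.

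The wider set of genes named RBM, for RNA-binding motif protein, lay on both sides of 0. The name covers splicing factors, exon junction components and other proteins with related motifs. In all, 42 such genes were listed, *Rbm3*, *Rbmx*, *Rbmxl1*, *Rbmxl2* and *Rbmx2* among them. Of these, 37 passed the filter of 1 FPKM, a filter on the mean of all 6 libraries. Apart from *Rbm3*, 1 of 36 tested genes was higher and 4 were lower, which is 13.9% past the threshold against 10.9% of all tested genes. Positive log2 fold changes were found for 17 of these 36 genes and negative ones for 19, with a median of -0.018 against 0.015 for all tested genes. In 6 genes the quinpirole libraries all lay above and in 10 all below the mock libraries, where 36.9% of all tested genes were separated in either direction. After the length correction, 1 of the 36 genes, *Rbm12b1*, was past the threshold.

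The RBM gene that rose was *Rbm8a*, which encodes the exon junction complex subunit Y14. Its level went from 13.7, 14.0 and 14.5 FPKM in mock libraries to 15.6, 16.2 and 16.6 FPKM in quinpirole libraries, a log2 fold change of 0.18 (standard error 0.047) with a limma adjusted p of 0.0480. *Rbm20*, a splicing factor best known for titin in heart, fell from 3.89, 4.23 and 4.04 FPKM to 3.28, 3.23 and 2.68 FPKM (log2 fold change -0.32, limma adjusted p = 0.0460). *Rbm12b1* fell from 4.04, 3.69 and 3.48 FPKM to 2.91, 2.90 and 2.85 FPKM (log2 fold change -0.28, limma adjusted p = 0.0419). Both were weakly expressed, and the added pseudocount of 1 understates such changes.

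The splicing regulator *Rbm5* was lower at 31.4, 30.2 and 30.4 FPKM in quinpirole against 36.2, 37.2 and 33.4 FPKM in mock libraries (log2 fold change -0.21, limma adjusted p = 0.0412). *Rbm25*, a splicing factor that associates with the U1 ribonucleoprotein, was lower at 16.7, 16.4 and 16.1 FPKM against 19.2, 18.3 and 18.6 FPKM (log2 fold change -0.18, limma adjusted p = 0.0444). The annotated exons of these genes are long, 15434 bases for *Rbm5* and 17376 bases for *Rbm25*. With the length correction, the log2 fold changes were -0.02 (limma adjusted p = 0.794) for *Rbm5* and 0.04 (limma adjusted p = 0.684) for *Rbm25*. The number of RBM genes past the threshold, 5 of 36 with *Rbm3* set aside, was 0 when any single library other than mock library 3 was left out, and 4 without mock library 3 (limma). At an unadjusted p under 0.05, these counts were 13 of 36 with all libraries, 11 to 13 without any 1 of those 5 libraries and 14 without mock library 3. Among all tested genes, 3839 of 12255 had such a p with all libraries. With single libraries left out, the count of all genes was 2883 (without mock library 2) to 3912 (without mock library 3). The call of *Rbm8a* was lost with median ratio scaling, quantile normalization, no filter, eBayes without trend, a replicate block, and length or GC correction. It was also lost when any single library was left out. In none of these fits was another RBM gene, with *Rbm3* set aside, past the threshold in the higher direction.

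**Figure D3:**
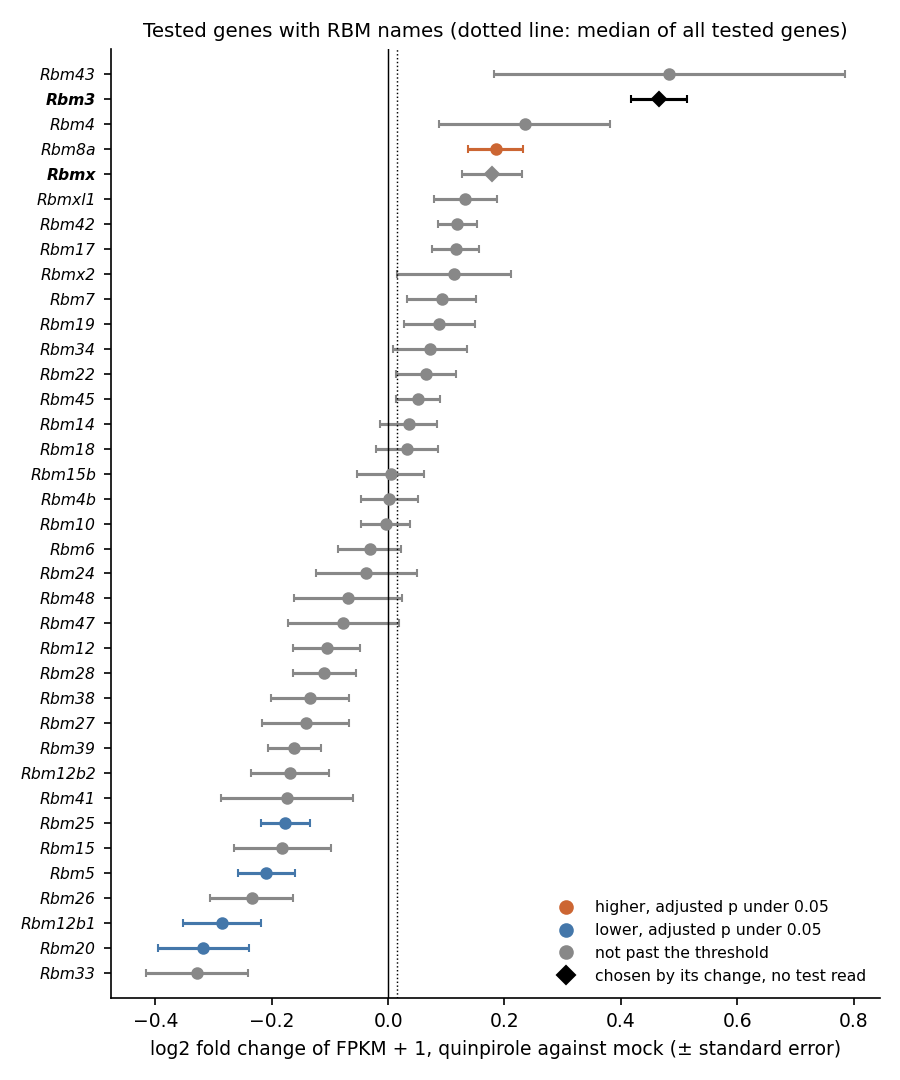
Log2 fold change of quinpirole against mock (x axis, ± standard error) for the 37 tested genes named RBM (y axis, sorted), coloured by the limma call, with *Rbm3* in black. *Rbm43* alone has a larger value than *Rbm3*, 0.48 with a standard error of 0.30, because mock library 2 was low, and the other genes spread on both sides of the median of all tested genes, 0.015.

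*Rbm43* was the only RBM gene with a log2 fold change above that of *Rbm3*, and it did not pass the threshold (0.48, standard error 0.30, limma adjusted p = 0.313). Its level was 3.19 FPKM in mock library 2 and 8.52 to 9.36 FPKM in the other 5 libraries. At the other end, *Rbm33* had the lowest value, a log2 fold change of -0.33 with a limma adjusted p of 0.0533.

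Genes described as acting upstream of *Rbm3* or *Cirbp* were taken from a list of 9: transcription factors (*Hsf1*, *Sp1*, *Hif1a*, *Creb1*), the splicing regulator *Hnrnph1*, and the pathway from brain-derived neurotrophic factor through its receptor TrkB (*Bdnf*, *Ntrk2*, *Plcg1*, *Mapk3*). All 9 were tested, none was higher and 1 was lower (11.1%, near the 10.9% of all tested genes), and the median log2 fold change was -0.06 against 0.015 for all tested genes. *Ntrk2*, the gene of TrkB, fell from 83.4, 89.1 and 85.7 FPKM in mock to 76.7, 74.2 and 78.3 FPKM in quinpirole libraries, a log2 fold change of -0.17 (standard error 0.040, limma adjusted p = 0.0415). With the length correction, its direction turned to 0.06 (limma adjusted p = 0.411), its annotated exons covering 19292 bases. *Bdnf*, the ligand, was measured at 2.46 to 2.55 FPKM in mock and 2.72 to 3.18 FPKM in quinpirole libraries and did not pass the threshold (log2 fold change 0.18, limma adjusted p = 0.126). *Hsf1*, the heat shock transcription factor, had overlapping groups (log2 fold change -0.06, limma adjusted p = 0.415), and for *Sp1*, a general activator placed at the *Cirbp* promoter in work on mild cold, the log2 fold change was -0.18 (limma adjusted p = 0.0999).

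A sequence that has been described as a mild cold response element, TCCCCGCC, was searched on both strands in RefSeq promoter windows of 250 bases before to 50 bases after a start site (GRCm38.p6). It occurred in 1 of the 2 *Cirbp* windows, 247 bases before that start, and not in the *Rbmx* window, and 5.4% of 32851 windows held it. *Rbm3* had no window in the table. The *Cirbp* stretch is shown because it holds the match, in capitals, at chr10:80167589-80167777 on the plus strand, within the span that GENCODE gives the gene:
Cirbp promoter: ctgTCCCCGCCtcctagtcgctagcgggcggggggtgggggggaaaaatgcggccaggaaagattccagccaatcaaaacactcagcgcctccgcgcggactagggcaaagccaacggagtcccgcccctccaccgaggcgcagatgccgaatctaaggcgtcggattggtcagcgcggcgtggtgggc

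Other short motifs were searched in the same windows. The heat shock element core GAANNTTC was found in 7.9% of all windows, the E-box CACGTG in 7.2% and the antioxidant response element core TGACNNNGC in 12.4%. None of these letters occurred in the *Cirbp* or *Rbmx* windows.

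Among 7 mRNAs described as bound or favoured by RBM3 or CIRBP, 6 were tested, of which 2 were higher and none was lower (33.3%, against 10.9% of all tested genes), and the median log2 fold change was -0.017. *Txn1*, which encodes the redox protein thioredoxin, rose from 106.9, 107.2 and 112.1 FPKM in mock to 136.1, 138.1 and 125.6 FPKM in quinpirole libraries, a log2 fold change of 0.29 (standard error 0.046, limma adjusted p = 0.0236). *Rpa2*, a subunit of the single-stranded DNA-binding complex RPA, rose from 17.1, 16.8 and 16.5 FPKM to 19.3, 19.4 and 20.2 FPKM, a log2 fold change of 0.21 (limma adjusted p = 0.0297). With the length correction, both missed the threshold, *Txn1* at 0.16 (limma adjusted p = 0.0506) and *Rpa2* at 0.15 (limma adjusted p = 0.0892). The other 4 tested mRNAs did not pass. *Rtn3*, through which RBM3 is described to act on synapses, was at 100.8 to 126.9 FPKM in mock and 102.1 to 109.3 FPKM in quinpirole libraries (log2 fold change -0.04, limma adjusted p = 0.753). *Clock*, a core circadian gene, had the lowest log2 fold change of the list, -0.27 (limma adjusted p = 0.0657), and *Ptgs2* was below the filter.

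CIRBP that leaves the cell is described to bind TLR4 with its partner MD-2 (*Ly96*), TREM-1 and the IL-6 receptor, and within the cell it is modified by GSK3β and carried to the nucleus by transportin 1. Of the 4 receptor genes, 3 were tested and 1 was lower, where 5.18% of all tested genes were lower. *Il6ra* fell from 14.3, 14.6 and 13.3 FPKM in mock to 12.3, 11.7 and 11.8 FPKM in quinpirole libraries, a log2 fold change of -0.22 (limma adjusted p = 0.0438), and was at -0.14 (limma adjusted p = 0.105) after the length correction. *Tlr4* was expressed at 1.48 to 2.27 FPKM over all libraries (log2 fold change -0.07, limma adjusted p = 0.706), *Ly96* had a log2 fold change of 0.22 (limma adjusted p = 0.248), and *Trem1* was below the filter. Neither *Gsk3b* (log2 fold change -0.14, limma adjusted p = 0.243) nor *Tnpo1* (-0.15, limma adjusted p = 0.219) passed the threshold, and *Prmt1* was not analysed here.

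Genes with a cold shock domain encode another class of RNA-binding proteins, unrelated in fold to RBM3, and 4 of 5 examined were tested. All 4 had positive log2 fold changes, with a median of 0.134, and 1 was past the threshold. Of all 12255 tested genes, 6593 had positive values and 10.9% were past the threshold. *Ybx1*, which encodes the mRNA-packaging protein YB-1, rose from 234.3, 232.1 and 232.6 FPKM in mock to 259.8, 274.0 and 270.0 FPKM in quinpirole libraries, a log2 fold change of 0.20 (standard error 0.034, limma adjusted p = 0.0251). With the length correction it was at 0.12 (limma adjusted p = 0.0631). *Ybx3* had the next value, 0.17 (limma adjusted p = 0.0680), with all quinpirole libraries above all mock libraries. *Carhsp1* and *Csdc2* were at 0.10 (limma adjusted p = 0.221) and 0.02 (limma adjusted p = 0.748) and overlapped between the groups.

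Heat shock genes, which respond to warming where *Rbm3* and *Cirbp* respond to cooling, moved in both directions. Of 10 tested genes, 2 were higher and 2 were lower (40.0%, against 10.9% of all tested genes), with a median log2 fold change of 0.072. The mitochondrial chaperonin genes rose, *Hspd1* from 56.7, 58.4 and 59.4 FPKM to 66.3, 69.7 and 66.7 FPKM (log2 fold change 0.21, limma adjusted p = 0.0251), and *Hspe1* from 78.8, 74.8 and 73.8 FPKM to 86.5, 93.9 and 83.6 FPKM (0.21, limma adjusted p = 0.0451). The 2 genes that were lower encode cytosolic chaperones. *Hsph1*, a nucleotide exchange factor of HSP70, fell from 30.9, 30.3 and 29.9 FPKM to 26.2, 24.8 and 25.8 FPKM (log2 fold change -0.24, limma adjusted p = 0.0246), and *Hspa1b*, an inducible HSP70, fell from 15.4, 15.8 and 15.9 FPKM to 12.9, 13.2 and 13.5 FPKM (-0.24, limma adjusted p = 0.0258). *Hspa1b* has a near-identical copy in *Hspa1a* (log2 fold change -0.14, limma adjusted p = 0.102), so the split of reads between them is uncertain. After the length correction, *Hspd1*, *Hsph1* and *Hspa1b* were past the threshold and *Hspe1* was not (limma adjusted p = 0.288).

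**Figure D4:**
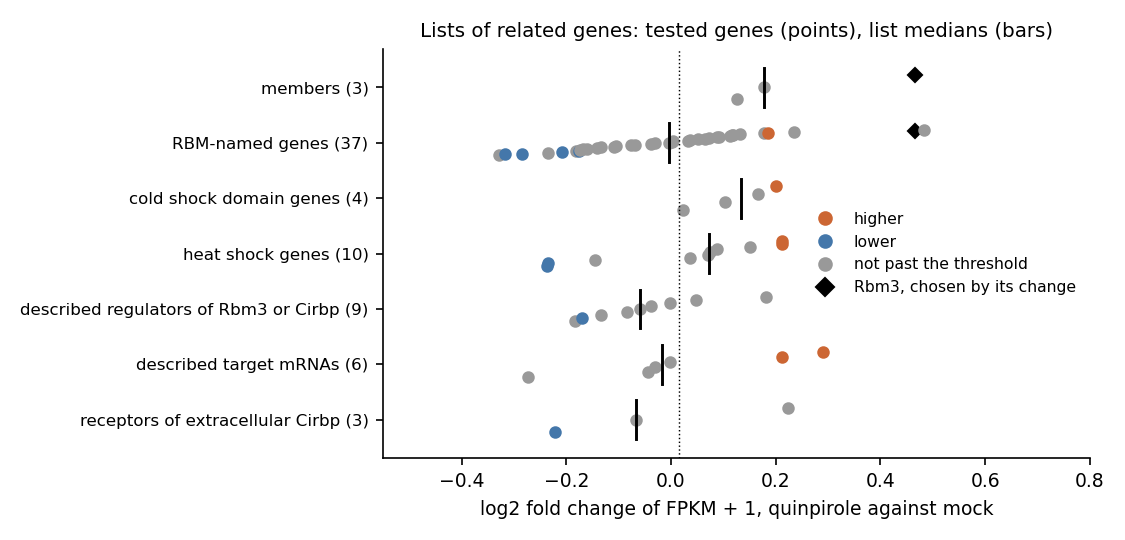
Log2 fold change of FPKM + 1, quinpirole against mock (x axis), for each tested gene (points) in 7 lists of related genes (y axis, number tested in parentheses), with list medians as bars and the median of all tested genes, 0.015, as a dotted line. Apart from *Rbm3* (black), genes past the threshold lie on both sides, and no list member other than *Rbm43* reaches the *Rbm3* value of 0.47.

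By the profile over the 6 libraries, few genes lay near *Rbm3*. The measure of likeness was the root mean square difference of log2(FPKM + 1) after centring each gene, over 12255 genes. Values were not scaled, so the measure depends on the size of a change as well as on its pattern. *Rbm3* stood at rank 62 by log2 fold change, so few genes could lie near it, and counts of near genes reflect size too. Since *Rbm3* was chosen for its pattern, these values are descriptions. The nearest to *Rbm3* were *Lmo2* (0.0495), *Pir* (0.0604), *Rtkn2* (0.0643), *C1ql1* (0.0645) and *0610009L18Rik* (0.0673), and 1 gene lay within 0.05. *Lmo2*, a transcriptional adaptor, had mean levels of 5.58 and 8.01 FPKM in mock and quinpirole libraries. For *Cirbp* 463 genes lay within 0.05, the nearest being *Cib1* (0.018), and for *Rbmx* 161 genes did, the nearest being *Zswim7* (0.0191). Neither *Cirbp* nor *Rbmx* was among the 5 nearest genes of *Rbm3*. Their smaller log2 fold changes (0.13 and 0.18 against 0.47) fixed this in advance, so it does not show whether they moved with *Rbm3*.

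The labelled cell type was checked with its markers, and 8 of 8 astrocyte markers were present, led by *Gfap* at 482.2 to 559.9 FPKM. The lowest was *Slc1a2*, at 7.47 to 8.55 FPKM in mock and 5.15 to 6.37 FPKM in quinpirole libraries. By mock level, *Gfap* stood at rank 71 of all listed genes and the mural marker *Acta2* at rank 8. The summed level of the 8 astrocyte markers was 1429 to 1593 FPKM in mock and 1430 to 1457 FPKM in quinpirole libraries. Within the list, *Atp1b2*, the gene of the antigen used for isolation, fell (log2 fold change -0.19, limma adjusted p = 0.0382), as did *Slc1a2* (-0.42, limma adjusted p = 0.0297). After the length correction *Atp1b2* was past the threshold and *Slc1a2* was not (-0.27, limma adjusted p = 0.0573). Markers of other cells were present too. The 5 microglial markers summed to 136.0 to 144.9 FPKM in mock and 125.1 to 131.9 FPKM in quinpirole libraries. The 3 mural markers summed to 2546 to 2715 and 2731 to 2902 FPKM, nearly all from *Acta2*, with *Rgs5* at most at 0.420 FPKM. The mural marker *Pdgfrb* went the other way, from 27.18, 26.53 and 25.03 FPKM in mock to 21.6, 20.7 and 21.3 FPKM in quinpirole libraries (log2 fold change -0.30, limma adjusted p = 0.0227), and was also lower after the length correction (limma adjusted p = 0.0308). The 5 neuronal markers, mostly *Tubb3*, summed to 20.4 to 22.6 and 23.4 to 25.6 FPKM, with *Rbfox3* at most at 0.050 FPKM. The 4 endothelial markers summed to 7.13 to 7.34 and 5.63 to 6.69 FPKM, with *Pecam1* at most at 0.060 FPKM, and the 2 markers of oligodendrocyte precursors to 2.07 to 2.67 and 1.70 to 1.93 FPKM. These 5 sums did not overlap between the groups, where 36.9% of all tested genes were separated in either direction. *Rbm3* was itself chosen for its rise. Whether the amounts of these cell types differed, and any part of that in the *Rbm3* difference, was not tested. The sums of the 4 oligodendrocyte markers, with *Mog* at or near 0, and of the 3 ependymal markers, nearly all *Foxj1*, overlapped between the groups.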

How the data were processed

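The data were 6 tables of 1 value per gene, for 3 mock and 3 quinpirole libraries. Per the labels and methods, the authors made poly-A libraries, trimmed the paired-end reads, aligned them by TopHat2 (the submitters' processing notes name GRCm38), kept alignments with at most 1 mismatch and deposited FPKM. The program and annotation behind FPKM and any use of strand were not given in the sources used here, so reads from antisense partners cannot be told apart.

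Symbols were matched for 17090 of 17193 identifiers. Positions, lengths and coding sequences came from GENCODE M21 (GRCm38), and promoters from RefSeq (GRCm38.p6). Genes with a mean of at least 1 FPKM were tested on log2(FPKM + 1) with limma 3.58.1 in R 4.3.3 (lmFit, eBayes with trend, threshold 0.05) after a test on simulated data. No covariate was used. For the length correction, a loess curve (span 0.3) of each library's deviation from the gene mean against log2 exonic length was subtracted, which would also remove a true change related to length. Alternatives were omission of the filter, a minimum of 5 FPKM, a pseudocount of 0.1, median ratio scaling, quantile normalization, eBayes without trend or with robust estimation, a replicate block, GC correction and omission of each library. Tables and plots were made in Python 3.11.15 with matplotlib 3.10.9, scipy 1.17.1, pandas 2.3.3 and numpy 2.4.6.

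The genes named are *Rbm3*, *Cirbp* and *Rbmx*, their relatives, genes named RBM, lists of described regulators, targets, modifiers and receptors, cold shock domain, heat shock, circadian clock and stress granule genes, cell type markers and the 5 genes nearest in profile to each of the 3. The genes and lists were chosen with earlier results of these data known. A further 2 listed genes are not reported here and were left out of the counts of their lists.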

Additional observations from a re-analysis of the deposited data

How the results depend on the processing

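The log2 fold change of *Rbm3* was 0.385 with quantile normalization and 0.406 to 0.470 under the other alternatives, against 0.466 as reported, and 0.446 to 0.504 with single libraries left out. *Cirbp* was positive and past no threshold under all 12 alternatives (0.052 to 0.131, limma adjusted p 0.138 to 0.528) and without each library (0.092 to 0.167, adjusted p 0.115 to 0.335). The same held for *Rbmx* (0.134 to 0.189, adjusted p 0.056 to 0.175, and without each library 0.138 to 0.210, adjusted p 0.102 to 0.156).

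Counts of genes past the threshold moved more. Against 1339 of all tested genes and 6 genes named RBM, which include the chosen *Rbm3* and are 5 of 36 without it, they were 633 and 1 without a filter, 783 and 3 with quantile normalization, 714 and 3 without the trend, 509 and 2 with the length correction, and 375 and 2 with length and GC correction together. Without single libraries they ranged from 3 to 1182 genes and from 0 to 5 genes named RBM. The lowest count of all genes was without mock library 2, and the others were 6 (mock 1), 11 (quinpirole 1), 25 (quinpirole 2) and 214 (quinpirole 3). The higher share of all called genes was 52.6% as reported, 57.8% with a minimum of 5 FPKM, 45.6% with median ratio scaling, 41.0% without the trend and 36.1% with quantile normalization. The causes of these moves were not tested.

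With the replicate number as a block, 2 of all tested genes and 0 genes named RBM were past the threshold by limma, and with the block and the length correction together 0 and 0. At an unadjusted p under 0.05 these fits counted 3308 and 11, and 2723 and 10. Whether the replicate numbers mark a pairing or a batch was not given in the sources used here. Deviations of same-numbered libraries from their group means correlated at 0.026, -0.0657 and -0.1029, and those of other pairs at -0.097 to 0.1549. By this measure, same-numbered libraries were not more alike than other pairs.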

Other observations

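Circadian clock genes include mRNAs that CIRBP and RBM3 have been described to affect. Of 19 listed, 16 were tested, of which 1 was higher and 1 lower (12.5%, near the 10.9% of all tested genes), with a median log2 fold change of -0.042. *Dbp*, a clock output transcription factor, rose from 40.2, 41.3 and 42.0 FPKM in mock to 51.4, 49.2 and 50.9 FPKM in quinpirole libraries (log2 fold change 0.29, limma adjusted p = 0.0225). *Per2*, a repressor of the clock, fell from 7.22, 7.76 and 7.31 FPKM to 6.05, 5.65 and 5.97 FPKM (log2 fold change -0.29, limma adjusted p = 0.0281). Both remained past the threshold after the length correction, at 0.23 and -0.27. With the replicate block, 2 of all tested genes were past the threshold, so most calls given here were not kept in that fit. *Per3* had a log2 fold change of -0.25 and a limma adjusted p of 0.0508. The hour at which the mice were killed was not given in the sources used here.

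Of 9 stress granule genes, all tested, none passed the threshold by limma, against 10.9% of all tested genes. An unadjusted p under 0.05 was found for 3 of the 9, and for 3839 of all 12255 tested genes. The median log2 fold change of the 9 was -0.002. *G3bp1*, the granule scaffold, was at 22.1, 22.6 and 21.6 FPKM in mock and 25.1, 24.3 and 24.5 FPKM in quinpirole libraries (log2 fold change 0.15, limma adjusted p = 0.0525), and after the length correction it passed at 0.20 (limma adjusted p = 0.0384). *Tia1*, a partner protein of the granules, was at 10.5, 11.1 and 11.9 FPKM and at 6.92, 10.1 and 6.59 FPKM (log2 fold change -0.475, limma adjusted p = 0.0669). All 3 quinpirole libraries lay below the mock libraries, with library 2 close to them.

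*Rbm3* and *Rbmx* lie on chromosome X. RNA of 4 genes of chromosome Y was present in all 6 libraries, *Ddx3y* at 6.64 to 8.51 FPKM, and none of the 4 was past the threshold between the groups (limma).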
